A study of Mus musculus with 4 samples.

Results

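The osteoclast and RANKL system genes were followed in RNA-seq libraries of mouse tibial bone marrow. The 10 members were chosen by name for their known roles, as Tnfsf11, Tnfrsf11a, Tnfrsf11b, Nfatc1, Oscar, Dcstamp, Ocstamp, Acp5, Ctsk and Atp6v0d2, and not by a threshold on measured values. They were matched by gene symbol, each matched 1 gene, and together they held 32 of the 142604 annotated transcripts and 10 of the 55401 genes. All the mice were wild-type male C57/B6 animals that received a high-fat diet (HFD) from the age of 8 weeks until they were obese. They were then split at random. The Ob group (obesity, 2 libraries) stayed on the HFD with no other intervention, and the Ob + Exe group (obesity with exercise, 2 libraries) ran on a treadmill at moderate intensity for 12 weeks under the same diet. No lean group was analysed here, so every difference below is between groups of obese mice. Nothing in the labels says whether a library is 1 mouse or a pool, and p values measure only the spread between these libraries.

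The osteoclast is the multinucleated cell that resorbs bone, and it forms by fusion of precursors of the monocyte and macrophage lineage. RANKL, encoded by Tnfsf11, is presented by osteoblast-lineage and lymphoid cells and binds its receptor RANK (Tnfrsf11a) on the precursors, while osteoprotegerin (Tnfrsf11b) is a soluble decoy that keeps RANKL from RANK. Signaling from RANK induces the transcription factor NFATc1, which in turn drives the fusion proteins and the acid and protease machinery of resorption. In bone marrow these genes are read from a mixture of cells, and Acp5, Ctsk and Atp6v0d2 are also expressed by macrophages.

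Values are FPKM, the fragments of a gene scaled to transcript length and to library size, summed over the transcripts of each gene and scaled between libraries. FPKM can therefore be compared between genes. The aligned bases behind them were 8702 to 9952 Mb per library, or 44.3 to 53.0 M reads on transcripts, given as read equivalents (coverage times length over the read length of 150 bases). Neutrophil markers summed to 27996 to 66016 FPKM per library and stromal cell markers to 101 to 165, whereas the labels give bone marrow as the tissue but mesenchymal stem cells and fibroblast as the cells. In marrow as a whole, fewer cells of a type and less RNA per cell cannot be told apart. Of the 18596 genes with a mean of at least 0.1 FPKM, the limma fit called 3.74% at an unadjusted p under 0.05 with a log2 fold change beyond 1 in either direction, 0.995% as higher and 2.75% as lower in Ob + Exe. Of the 696 calls 26.6% were higher, and with quantile normalization 37.2% of 662. After Benjamini-Hochberg adjustment over all genes the smallest limma p was 0.737, so 0 genes passed 0.05 there. Unadjusted, 939 of the 18596 genes had a limma p under 0.05, which is close to the share of 0.05 reached if no gene differed. Fold changes below are of Ob + Exe against Ob, with the standard error (SE) from limma.

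The members covered a wide range of levels. Acp5 was the most abundant, with 38.1 to 58.2 scaled FPKM over the 4 libraries, and it lay above Atp6v0d2 in all 4. Atp6v0d2 (4.79 to 23.3) and Nfatc1 (8.69 to 12.0) overlapped, so their order was not resolved. Ctsk followed with 1.41 to 3.49 and was separated from both Nfatc1 above it and Tnfrsf11a below it, at 0.312 to 1.12. From there down, each gene overlapped the next: Tnfsf11 lay between 0 and 0.542, Oscar between 0 and 0.476, Dcstamp between 0 and 0.118, Ocstamp between 0 and 0.0393, and Tnfrsf11b between 0 and 0.0195. A value of 0 is the value listed in the tables. The 37 mitochondrial transcripts are also listed at 0 in every library, so a listed 0 was not read as absence.

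**Figure D1:**
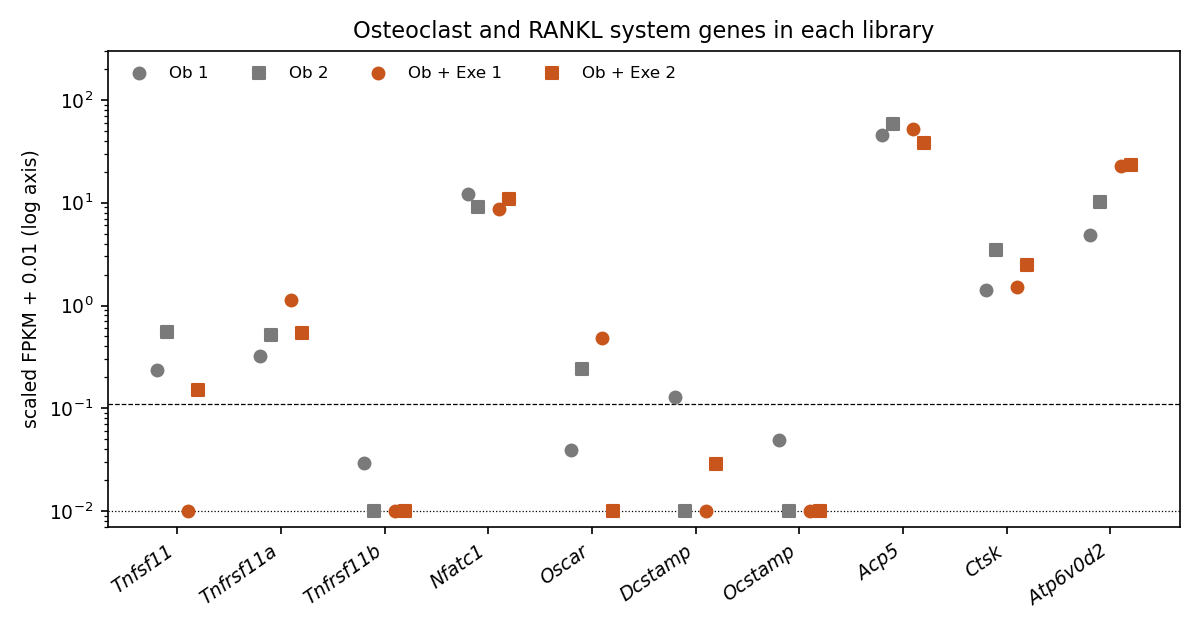
Scaled FPKM of each of the 10 genes in the 4 libraries, with 0.01 added on a log axis. Grey points are the 2 Ob libraries and orange points the 2 Ob + Exe libraries (circles replicate 1, squares replicate 2), the dotted line marks a listed 0 and the dashed line the minimum mean of 0.1 FPKM. Atp6v0d2 separates, with both Ob + Exe libraries at 22.9 and 23.3 and both Ob libraries at or below 10.1, whereas Acp5, Ctsk and Nfatc1 overlap.

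Dcstamp and Ocstamp, which encode membrane proteins needed for precursor fusion, were close to the limit of these libraries. Dcstamp had 16.1 read equivalents in Ob library 1 and 1.92 in Ob + Exe library 2 and is listed at 0 in the other 2 libraries. Ocstamp had 9.83 in Ob library 1 and is listed at 0 in the other 3. Calcr, the calcitonin receptor of mature osteoclasts, is listed at 0 except for 0.0871 scaled FPKM in Ob library 2, and Siglec15, a receptor of osteoclast differentiation, had 0.0306 and 0.0879 in Ob and is listed at 0 in both Ob + Exe libraries. Acp5, Nfatc1, Ctsk and Atp6v0d2, the 4 members above 1 FPKM in every library, are also expressed by other marrow cells. Not every gene of mature osteoclasts was near 0: Itgb3, an integrin subunit that platelets carry too, had 24.4 and 16.6 scaled FPKM in Ob against 22.0 and 8.95 in Ob + Exe, and the kinase gene Src had 2.66 and 1.87 against 2.10 and 0.668. The set is therefore described gene by gene and not as a measure of osteoclasts.

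Of the 10 members, 7 passed the minimum of 0.1 FPKM and were tested, and the 3 that did not were Tnfrsf11b, Dcstamp and Ocstamp. After exercise 3 of the 7 were higher and 4 were lower, and the median log2 fold change of the 7 was -0.11 against -0.02 for all genes tested. Of all genes tested 48.2% were higher, which is the background for the counts of higher and lower genes below. One member, Atp6v0d2, was called, which is to be read against the 3.74% of all genes. The libraries of the 2 groups did not overlap for 3 members, Tnfsf11, Tnfrsf11a and Atp6v0d2. Such a separation was found for 32.6% of all genes tested, so this count is near the background.

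**Figure D2:**
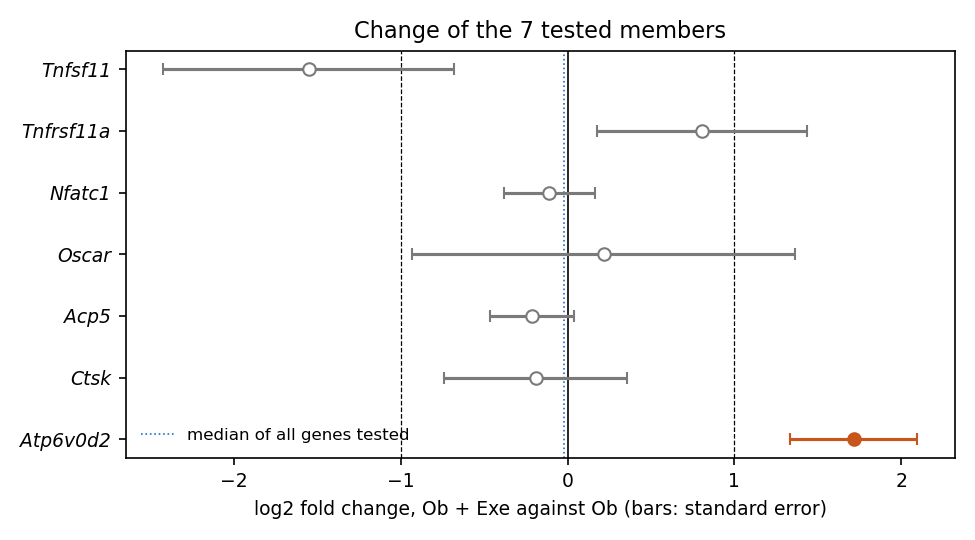
Log2 fold change (Ob + Exe against Ob) of the 7 tested members on the log2(FPKM + 0.1) scale, with bars of 1 standard error from limma. The filled orange point is the called gene, the dashed lines mark a fold change of 1 on the log2 scale in either direction and the dotted line the median of all genes tested. Only Atp6v0d2 lies beyond the threshold with its whole bar, while Tnfsf11 lies beyond it on the lower side with a bar that crosses it.

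The ligand, its decoy and its receptor are given first. Tnfsf11 (ENSMUSG00000022015.8) lies on chromosome 14 (GRCm38, minus strand, from 78277445 to 78308043). It has 1 annotated transcript, which no other annotated gene overlaps. It stood at 0.224 and 0.542 scaled FPKM in Ob, was listed at 0 in Ob + Exe library 1 and was 0.142 in Ob + Exe library 2. Both Ob + Exe libraries thus lay below both Ob libraries. The means were 0.383 ± 0.225 (SD, n = 2) in Ob against 0.0708 ± 0.1 (SD, n = 2) in Ob + Exe, from 34.2 and 81.2 read equivalents against 0 and 17.3. The log2 fold change of -1.55 (SE 0.873, limma unadjusted p = 0.127, adjusted p = 0.96) did not pass the thresholds, and it lay between -2.19 and -0.92 when a library was left out, the smallest without Ob + Exe replicate 1. Its size depended on the constant added to FPKM: it was -3.21 with 0.01 and -0.36 with 1, and with limma voom on read equivalents it was -3.98 (unadjusted p = 0.0809, adjusted p = 0.964).

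The summed markers of B cells and of osteoblasts and osteocytes, which are among the sources of RANKL, were lower in Ob + Exe. Among the 9 B cell markers, all tested, 8 were lower, and Cd79a, a subunit of the B cell receptor complex, and Igll1, a part of the pre-B receptor, were called. Cd79a had 48.2 and 44.2 scaled FPKM in Ob against 21.3 and 23.5 in Ob + Exe, and Igll1 had 14.3 and 12.8 against 4.94 and 3.54. Over the whole list the level was 202 and 210 against 160 and 129. Of 12 osteoblast and osteocyte markers 9 were tested, 8 were lower, and Col1a1 and Bglap2 were called. Col1a1, a chain of type I collagen, had 3.12 and 3.03 in Ob against 1.17 and 1.85 in Ob + Exe, and its call was lost when 1 library was left out, except for Ob + Exe library 2. Bglap2, an osteocalcin gene, had 1.12 and 3.39 in Ob, a listed 0 in Ob + Exe library 1 and 0.721 in Ob + Exe library 2, and its call was lost under the same 3 omissions. The osteocyte genes Sost and Mepe are listed at 0 in all 4 libraries. The osteoblast and osteocyte markers together had 24.7 and 32.9 against 19.9 and 23.1. T and NK cells are lymphoid as B cells are, and their markers summed to 76.0 and 45.6 against 74.0 and 54.5 and overlapped. Stromal cell markers, at 105 and 160 against 101 and 165, overlapped as well, with 4 of the 6 higher and 2 lower. Of the calls of B cell genes, that of Cd79a was lost without Ob replicate 1 or Ob + Exe replicate 1 (log2 fold change -0.98 and -0.97) and that of Igll1 without Ob replicate 1 (-1.60). The part of these cells in the level of Tnfsf11 was not tested.

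Tnfrsf11b (chromosome 15, from 54250619 to 54278484, minus strand), the decoy receptor, had 3.76 read equivalents in Ob library 1 and is listed at 0 in the other 3 libraries. The log2 ratio of Tnfsf11 to Tnfrsf11b, with 0.1 added to both, was 1.44 and 2.68 in Ob against 0 and 1.27 in Ob + Exe. The difference of -1.42 (two-sided exact permutation p = 0.333, which is as low as 2 libraries against 2 allow) rests almost wholly on Tnfsf11, since the decoy receptor lay below the added 0.1 in every library. With 0.01 added the exact permutation p was 0.667. TRAIL (Tnfsf10), another ligand that osteoprotegerin binds, had 1.32 and 1.10 scaled FPKM in Ob against 0.806 and 0.774 in Ob + Exe (log2 fold change -0.55, limma unadjusted p = 0.279, adjusted p = 0.96), a higher level than that of Tnfsf11 in every library.

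The level of the receptor RANK was higher in both Ob + Exe libraries than in both Ob libraries. Tnfrsf11a, on the plus strand of chromosome 1 from 105780718 to 105847981, had 0.312 and 0.506 scaled FPKM in Ob against 1.12 and 0.527 in Ob + Exe. The gap between the highest Ob and the lowest Ob + Exe library was small, and the log2 fold change of 0.81 (SE 0.629, limma unadjusted p = 0.248, adjusted p = 0.96) did not pass. The value of 1.12 came largely from 1 short transcript of 4 exons, which had 0.680 in Ob + Exe library 1 and between 0 and 0.0391 elsewhere. The transcript of 10 exons that spans the whole gene had 0.273 and 0.484 in Ob against 0.440 and 0.527 in Ob + Exe, and there the groups overlapped. Without Ob + Exe replicate 1 the log2 fold change of the gene was 0.33, and without Ob + Exe replicate 2 it was 1.29. Csf1r, the receptor of M-CSF on the same precursors, had 21.6 and 24.6 in Ob against 23.8 and 19.3 in Ob + Exe.

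Downstream of RANK, Nfatc1 (ENSMUSG00000033016.16, chromosome 18, minus strand) overlapped between the groups as a whole gene. Its scaled FPKM was 12.0 and 9.17 in Ob against 8.69 and 10.9 in Ob + Exe, with a log2 fold change of -0.11 (SE 0.272, limma adjusted p = 0.983). Its transcripts were less even. The mouse gene is known to have an inducible upstream promoter and a downstream one, and the annotation holds 3 transcripts at an upstream group of start sites, 3 at a start 4898 bases further on, and 1 short transcript that starts far inside the gene. Transcripts of the upstream group had 3.36 scaled FPKM in Ob library 1, were listed at 0 in Ob library 2, and had 6.33 and 7.47 in Ob + Exe. Transcripts of the downstream start had 8.66 and 9.17 in Ob against 2.37 and 3.24 in Ob + Exe. The upstream start thus held 28.0% and 0% of the FPKM of the gene in Ob against 72.8% and 68.7% in Ob + Exe.

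The 3′ ends of Nfatc1 showed no such shift. The 4 transcripts that end at the most distal annotated end held 61.0% to 64.3% of the FPKM, and the 2 of 8 exons that end earlier held 35.7% to 39.0%, over the 4 libraries. Of the latter, the one from the downstream start, ENSMUST00000035800.7, had 3.34 and 3.27 in Ob and is listed at 0 in both Ob + Exe libraries (limma unadjusted p = 0.00156, adjusted p = 0.289 over all transcripts). Its counterpart from the upstream start, ENSMUST00000236711.1, had 1.05 in Ob library 1, was listed at 0 in Ob library 2, and had 3.39 and 3.98 in Ob + Exe (log2 fold change 3.47, SE 1.36, limma unadjusted p = 0.0614, adjusted p = 0.773). An annotated gene on the other strand, Gm50211, overlaps Nfatc1 and had at most 0.964 FPKM.

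Acp5, tartrate-resistant acid phosphatase, is the classical stain for osteoclasts. The gene (ENSMUSG00000001348.15) lies on the minus strand of chromosome 9 from 22126727 to 22135711. Its scaled FPKM was 45.7 and 58.2 in Ob against 52.0 and 38.1 in Ob + Exe, from 2566 to 5176 read equivalents, and the groups overlapped. The log2 fold change was -0.21 (SE 0.252, limma adjusted p = 0.971). On the other strand 6530413G14Rik overlaps it, with at most 0.157 FPKM. As in Nfatc1, an overlapping total held transcripts that lay in opposite directions. Acp5 has alternative first exons, and its 6 transcripts begin at 3 groups of start sites, an upstream group, a middle group 3880 bases further on and a downstream start 5113 bases from the first.

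Transcripts of the upstream group had 20.6 and 13.2 scaled FPKM in Ob against 38.9 and 34.2 in Ob + Exe, a ratio of means of 2.16. Those of the middle group had 9.26 and 19.5 in Ob against 2.18 and 3.19 in Ob + Exe, so that the Ob mean was 5.36 times that of Ob + Exe. The downstream start had 15.9 and 25.4 in Ob against 10.8 and 0.681 in Ob + Exe. The Ob and Ob + Exe libraries did not overlap at any of the 3 groups. The SD within Ob + Exe was largest at the downstream start (7.19, n = 2), and within Ob at the middle group (7.27, n = 2). The upstream group held 45.0% and 22.7% of the FPKM of Acp5 in Ob against 74.9% and 89.8% in Ob + Exe.

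The 250 bases before each of the 3 RefSeq start sites are shown because the shift in level lay between them. They are from RefSeq on GRCm38.p6, minus strand, written 5′ to 3′ up to the base before the start, at chr9:22135747-22135996 (upstream), chr9:22131866-22132115 (middle) and chr9:22130599-22130848 (downstream). The nearest start in the deposited tables is 35, 34 and 0 bases from them. Capitals mark the core letters of a factor of the NFAT family, GGAAA, or TTTCC where they are on the other strand.
Acp5 upstream: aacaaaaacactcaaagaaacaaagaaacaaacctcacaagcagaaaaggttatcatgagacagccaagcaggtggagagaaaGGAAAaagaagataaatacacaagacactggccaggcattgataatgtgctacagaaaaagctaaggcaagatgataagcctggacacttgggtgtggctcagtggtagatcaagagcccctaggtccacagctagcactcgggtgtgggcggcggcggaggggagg
Acp5 middle: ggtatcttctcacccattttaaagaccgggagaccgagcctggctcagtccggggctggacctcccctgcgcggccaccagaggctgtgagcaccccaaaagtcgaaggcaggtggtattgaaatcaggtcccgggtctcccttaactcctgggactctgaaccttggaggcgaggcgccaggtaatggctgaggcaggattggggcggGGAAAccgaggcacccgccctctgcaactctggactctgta
Acp5 downstream: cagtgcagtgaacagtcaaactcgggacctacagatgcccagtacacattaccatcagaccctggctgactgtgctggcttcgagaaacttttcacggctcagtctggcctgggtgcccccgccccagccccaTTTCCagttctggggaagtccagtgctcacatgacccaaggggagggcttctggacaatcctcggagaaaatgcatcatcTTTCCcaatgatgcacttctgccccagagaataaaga
The core stands 1 time in the upstream window, 1 time in the middle window and 2 times in the downstream window, and 55.6% of all 32851 windows of this length hold it, so it does not set these windows apart. The letters TGANTCA of an AP-1 site, CACGTG of an E-box and GAGGAAG of a PU.1 core were not found in the 3 windows and are in 6.75%, 6.02% and 10.6% of all windows. The GC content was 48%, 61.2% and 54.4%. The table of promoters held 5 of the 10 members in 7 windows: Acp5, Ctsk, Oscar, Tnfrsf11a and Tnfsf11. The PU.1 core was in those of Ctsk and Oscar and the GGAAA core in those of Acp5, Oscar and Tnfsf11.

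At the level of single transcripts, 3 of the 6 Acp5 transcripts were called. ENSMUST00000165735.8, the main transcript of the upstream group, had 15.7 and 10.9 scaled FPKM in Ob against 33.2 and 28.5 in Ob + Exe (log2 fold change 1.23, SE 0.315, limma unadjusted p = 0.0168, adjusted p = 0.602). ENSMUST00000217643.1 of the middle group had 3.93 and 6.27 in Ob against 1.06 and 1.06 in Ob + Exe (log2 fold change -2.13, SE 0.491, limma unadjusted p = 0.0117, adjusted p = 0.553). The third, ENSMUST00000069330.13 of the same group, had 4.43 and 12.3 against 0.737 and 1.93 (log2 fold change -2.53, SE 0.786, limma unadjusted p = 0.0315, adjusted p = 0.695). Over all members 18 of the 32 transcripts were tested and 5 were called, 2 higher and 3 lower, against 6.44% of the 46692 transcripts tested (1.90% higher and 4.54% lower). The other called transcripts were the main one of Atp6v0d2, whose only other transcript is listed at 0, and ENSMUST00000035800.7 of Nfatc1. With a library left out, ENSMUST00000069330.13 lost its call under all 4 omissions, ENSMUST00000165735.8 under 3 (all but Ob replicate 1), the Atp6v0d2 transcript under 2 (either Ob + Exe library) and ENSMUST00000217643.1 under 1 (Ob replicate 2). ENSMUST00000165735.8 (limma unadjusted p = 0.0774) and the Atp6v0d2 transcript (limma unadjusted p = 0.0511) also lost it without the intensity trend, while ENSMUST00000035800.7 kept it under each of these settings. Transcripts of 1 gene share exons, so these 5 calls are not independent of each other. StringTie divides the reads of the shared exons among them, and mainly the reads over the first exons tell the starts apart.

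**Figure D3:**
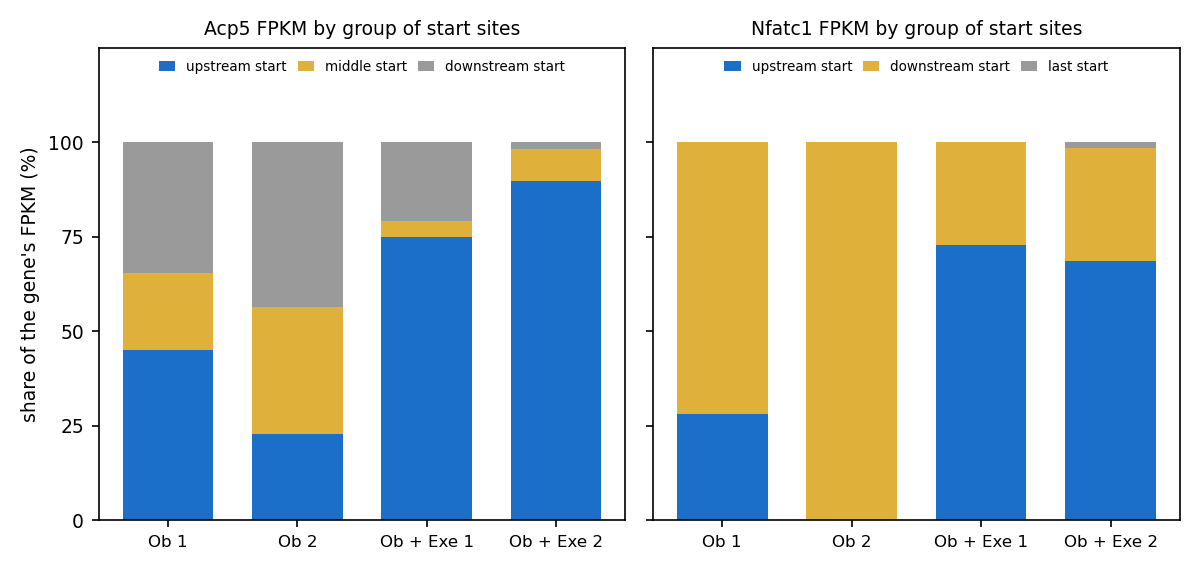
Share of the FPKM of Acp5 (left) and Nfatc1 (right) that belongs to each group of start sites, in percent, for the 2 Ob and the 2 Ob + Exe libraries. The upstream part, in blue, is 45.0% and 22.7% in Ob against 74.9% and 89.8% in Ob + Exe for Acp5, and 28.0% and 0% against 72.8% and 68.7% for Nfatc1.

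The grouping of start sites (starts within 500 bases of the next) was made after the transcript values were seen, and its shares are given with no test. The same grouping was applied to all 7553 genes with at least 2 start groups and at least 1 FPKM in every library. The share of the most upstream group moved by over 25 percentage points with no overlap between the libraries in 302 of them, and upward in 145 (1.92%). Of the members, Acp5, Nfatc1 and Atp6v0d2 were among these genes. Acp5, with a mean rise of 48.5 points, and Nfatc1, with 56.7 points, were past that mark, and 68 and 30 of the 7553 genes, themselves included, rose by at least as much. In Atp6v0d2 all the FPKM came from the upstream start in every library. The median shift over the 7553 genes was 0 points.

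Atp6v0d2 showed the clearest difference of a whole gene. It encodes the d2 subunit of the V-ATPase, the proton pump that acidifies the resorption space beneath the osteoclast and lysosomes in macrophages, and it also takes part in osteoclast fusion. The gene (ENSMUSG00000028238.6) lies on the minus strand of chromosome 4 from 19876841 to 19922605, with no other annotated gene over it. Its scaled FPKM was 4.79 and 10.1 in Ob against 22.9 and 23.3 in Ob + Exe. Both Ob + Exe libraries lay above both Ob libraries, and the Ob libraries lay further apart than the Ob + Exe libraries. The means were 7.44 ± 3.75 (SD, n = 2) and 23.1 ± 0.344 (SD, n = 2), from 831 and 1715 read equivalents in Ob against 3428 and 3248 in Ob + Exe. The ratio of the means was 3.10, and the log2 fold change was 1.72 (SE 0.38, limma unadjusted p = 0.00439, adjusted p = 0.952), which ranked 84 among the 18596 genes by p. A similar number of genes would reach such a p if none differed.

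The call of Atp6v0d2 was lost when either Ob + Exe library was left out, with a log2 fold change of 1.73 (unadjusted p = 0.0737) without replicate 1 and 1.70 (unadjusted p = 0.0768) without replicate 2. Over the alternatives with all 4 libraries its adjusted p in limma lay between 0.0998 and 0.994. Monocyte and macrophage markers overlapped between the groups in summed level, although 5 of the 9 did not overlap singly, against 32.6% of all genes. Their summed level was 476 and 416 in Ob against 406 and 482 in Ob + Exe, with 3 of the 9 higher, 6 lower and none called. Neutrophil markers, at 49132 and 27996 against 36316 and 66016, overlapped in summed level as well, with 9 of the 10 higher, 1 lower and none called (median log2 fold change 0.32). Skeletal muscle markers summed to 9.21 and 5.49 in Ob against 12.8 and 12.3 in Ob + Exe, with all 4 tested markers higher and Acta1, skeletal actin, called. The call of Acta1 was lost when any library other than Ob replicate 1 was left out. Their part in the level of Atp6v0d2 was not tested.

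None of the other V-ATPase subunits in a chosen list of 16, which does not hold every subunit, was called. All 16 were tested, 12 were higher and 4 lower, and their log2 fold changes lay between -0.06 (Atp6v0a1) and 0.43 (Atp6v1c1) with a median of 0.20. Atp6v0d1, the widely expressed d subunit that occupies the same place in the pump, had 59.3 and 46.4 scaled FPKM in Ob against 50.1 and 72.1 in Ob + Exe, and the groups overlapped. The level of Atp6v0d2 was 8.09% and 21.7% of that of Atp6v0d1 in Ob against 45.6% and 32.4% in Ob + Exe. The 3 most abundant of the other subunits, Atp6v0b, Atp6v0e and Atp6ap1, overlapped between the groups too, while the summed level of the 16 was 971 and 982 in Ob against 1057 and 1193 in Ob + Exe and did not overlap.

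For the remaining members of the resorption and receptor machinery the groups overlapped. Ctsk, cathepsin K, the collagenase of the resorption pit (chromosome 3, from 95499256 to 95509362, plus strand), had 1.41 and 3.49 in Ob against 1.51 and 2.46 in Ob + Exe, from 135 to 353 read equivalents. Its log2 fold change of -0.19 (SE 0.548, limma adjusted p = 0.984) lay between -0.82 and 0.43 when a library was left out. Oscar, a collagen-binding co-receptor of osteoclasts (chromosome 7, from 3609813 to 3616157, minus strand), had 0.0296 and 0.230 in Ob, 0.476 in Ob + Exe library 1 and a listed 0 in Ob + Exe library 2. It had at most 51.4 read equivalents, and its log2 fold change of 0.22 (SE 1.15, limma adjusted p = 0.988) turned to -0.48 with 0.01 added in place of 0.1 and to -0.83 with limma voom.

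The wider pathway was examined in 6 lists of other genes. Of 22 RANKL and M-CSF signaling genes, all tested, 15 were higher and 7 lower, none was called, and the median log2 fold change was 0.07. The 3 most abundant were the adaptors Fcer1g and Tyrobp, which couple OSCAR-like and TREM-like receptors to Syk, and Tab2. Fcer1g had 316 and 247 scaled FPKM in Ob against 236 and 310 in Ob + Exe, and all 3 overlapped between the groups.

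Of 11 osteoclast transcription factors 10 were tested, with 7 higher and 3 lower and a median of 0.12. Fos, an AP-1 factor without which osteoclasts do not form, was called. It had 5.80 and 6.25 scaled FPKM in Ob against 13.5 and 16.2 in Ob + Exe, so that both Ob + Exe libraries lay above both Ob libraries. Its log2 fold change was 1.28 (SE 0.246, limma unadjusted p = 0.00222, adjusted p = 0.939), and it was called under all 14 alternatives. Fos is also an immediate early gene of most cell types. Fosl2, another AP-1 factor, had 11.1 and 9.44 in Ob against 15.6 and 23.0 in Ob + Exe (log2 fold change 0.88, limma unadjusted p = 0.0202, adjusted p = 0.96), within the fold threshold. Spi1, which encodes PU.1, and Junb overlapped, and Fosl1 is listed at 0 in all 4 libraries.

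The other lists held no called gene. Among 6 inhibitors of osteoclast formation 3 were higher and 3 lower (median -0.02), and Lilrb4a, an inhibitory receptor, had 136 and 150 in Ob against 199 and 203 in Ob + Exe (log2 fold change 0.49, limma unadjusted p = 0.0499, adjusted p = 0.96). Among 14 resorption and acid secretion genes 13 were tested, 7 higher and 6 lower (median 0.10). Car2, carbonic anhydrase II, which is also abundant in erythroid cells, led them with 1193 and 1401 in Ob against 1505 and 1463 in Ob + Exe, which did not overlap (log2 fold change 0.20, limma adjusted p = 0.975). Mmp9, with 176 and 79.7 against 106 and 199, and Tcirg1, with 60.9 and 97.5 against 121 and 56.7, overlapped. The largest changes of this list were to lower levels. Slc9b2 had 0.277 and 0.389 in Ob against 0.0492 and a listed 0 in Ob + Exe, which did not overlap. Its log2 fold change was -1.81 (limma unadjusted p = 0.0648, adjusted p = 0.96). Those of Src and Itgb3 were -0.84 and -0.52, and both genes overlapped between the groups. Among 9 precursor fusion genes 8 were tested, 6 higher and 2 lower (median 0.37). Adam8, a metalloprotease of fusion, had 39.3 and 48.0 in Ob against 90.5 and 68.1 in Ob + Exe (log2 fold change 0.85, limma unadjusted p = 0.0123, adjusted p = 0.96). Of the most abundant of these, Cd9 and Cd47 overlapped and Sirpa had 68.5 and 65.7 in Ob against 92.5 and 91.8 in Ob + Exe (log2 fold change 0.46, limma unadjusted p = 0.0525, adjusted p = 0.96). Of the marker lists not yet given, erythroid markers (2 of 6 higher) overlapped between the groups in summed level. Endothelial markers (0 of 5 higher) were lower in both Ob + Exe libraries, at 13.3 and 11.2 against 17.6 and 16.5. So was the sum of the chondrocyte markers, at 0.186 and 0.538 against 0.835 and 0.756, but only 2 of these 4 were tested, 1 higher and 1 lower.

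**Figure D4:**
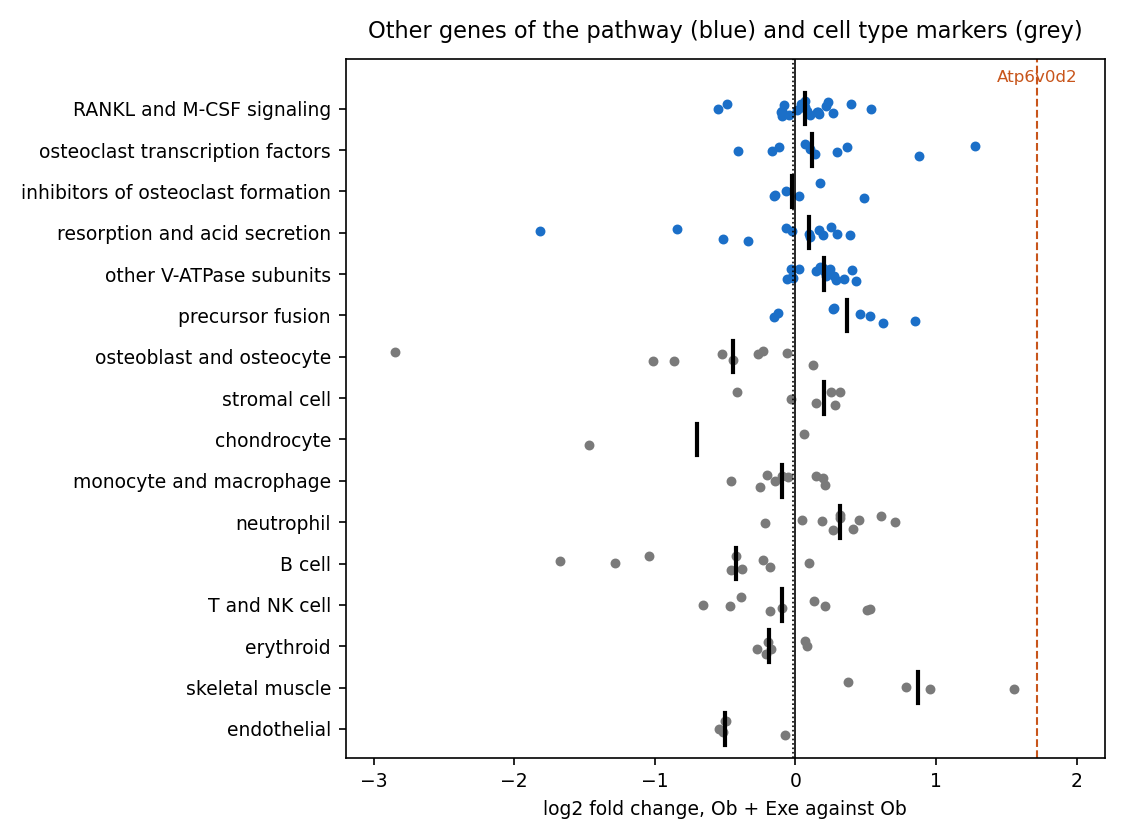
Log2 fold change (Ob + Exe against Ob) of each tested gene in the 6 lists of other pathway genes (blue) and the 10 lists of cell type markers (grey), with the median of each list as a black bar, the median of all genes as a dotted line and Atp6v0d2 as a dashed line. The pathway lists have medians between -0.02 and 0.37, and each of their genes lies to the left of Atp6v0d2 at 1.72. The lowest of them is Slc9b2 at -1.81, a change larger in size than that of Atp6v0d2.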

How the data were processed

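RNA was extracted from tibial bone marrow collected by centrifugation, and poly-A RNA was sequenced as paired reads of 150 bases in 2 Ob and 2 Ob + Exe libraries. Per the study's methods and the submitters' processing notes, the authors trimmed reads with fastp, removed rRNA reads, aligned to GRCm38 with HISAT2, processed alignments with SAMtools and used StringTie to quantify the transcripts of GENCODE vM25. Versions are not given in the sources used here. The authors deposited 1 table per library with the FPKM of each transcript (per kilobase and per library size). They also deposited its read coverage, a signal not scaled to depth. Neither gives whole reads, and read equivalents served only for depth and limma voom. The authors' own test was DESeq2, which needs read counts.

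Transcript FPKM were summed per gene, scaled with median-of-ratios factors (0.945 to 1.04), and genes with a mean of at least 0.1 FPKM were kept. Log2(FPKM + 0.1) was fitted over all these genes with limma 3.58.1 in R 4.3.3 (intensity trend, 2 residual and 3.79 prior degrees of freedom), and likewise over all transcripts. Fold changes on this scale understate the change of genes with low values. Genes were called past the study's thresholds, a log2 fold change beyond 1 in either direction with p under 0.05 before adjustment. All 10 members had the same coordinates in GENCODE vM21, which gave their gene type (protein-coding). The limma fit was tested on simulated gene counts with known changes, placed only in genes with a mean of at least 1 FPKM. That test did not cover changes of transcripts or of genes below that mean, such as Tnfsf11, Tnfrsf11a and Oscar. Tables were handled with Python 3.11.15, pandas 2.3.3 and scipy 1.17.1, and figures drawn with matplotlib 3.10.9.

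The members and lists were chosen with earlier results of these data known. The genes named are the 10 members, the called genes of each pathway list and its 3 most abundant tested genes. Marker genes are named where called or at 0. Named outside this rule, after their values were seen, were Calcr, Siglec15, Itgb3, Src, Slc9b2, Fosl1, Tnfsf10, Csf1r, Adam8, Atp6v0d1, Atp6v0a1 and Atp6v1c1. The results were recomputed with quantile or no normalization, voom, another minimum or pseudocount, no trend, a replicate block, adjusted p and each library left out. The crossed pairing, and the alternatives for transcripts and for listed genes, were added after seeing the data. The PCR, Western blotting, micro-CT and cell culture experiments were not analysed here.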

Additional observations from a re-analysis of the deposited data

How the results depend on the processing

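Atp6v0d2 was the called member in each of the other settings that fit all 4 libraries at the same thresholds, the crossed pairing included. Its log2 fold change there was from 1.59 to 1.73. At an adjusted p under 0.05 in limma 0 members were called, against 1 at an unadjusted p under 0.05. With a library left out, the number of members called was 0 to 1, the number of genes called 745 to 1919 (1919 without Ob + Exe replicate 2, 1260 without Ob + Exe replicate 1) and the number of member transcripts called 3 to 7. Among all genes, 696 were called (26.6% of them higher). This became 270 with a minimum mean of 1 FPKM, 222 with a pseudocount of 1, 455 with limma voom and 1059 without the intensity trend. Of these, 34.8%, 32.9%, 24.6% and 26.0% were higher, and 37.2% of 662 were with quantile normalization. The 5 called member transcripts became 3 without the intensity trend. Oscar turned to -0.48 with a pseudocount of 0.01 and -0.83 with limma voom. With a library left out, the log2 fold change ranged from -0.30 to 0.084 for Nfatc1, -1.05 to 1.48 for Oscar, -0.44 to 0.011 for Acp5 and -0.82 to 0.43 for Ctsk. The difference of the log2 ratio of Tnfsf11 to Tnfrsf11b kept its sign, from -2.61 to -0.35. A library left out leaves 1 in its group, which is assumed to vary like the other group. The calls of the markers Col1a1 and Bglap2 were also lost in 4 and 5 of the other settings. For changes of sign, the cause was not tested.

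Libraries of both groups carry the replicate numbers 1 and 2, and nothing in the labels or the study ties same-numbered mice to each other. Across genes, the deviations of same-numbered libraries from their group means correlated at -0.106 over 18596 genes, and at -0.235 over the 12409 with a mean of at least 1 FPKM, which are not independent replicates. With the replicate block 744 genes were called, and Atp6v0d2 was again the 1 called member (adjusted p = 0.142 in limma). Member transcripts called were 7. The crossed pairing, chosen after seeing the data, gave 802 genes, the same 1 member (adjusted p = 0.0998 in limma) and 7 member transcripts.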
